A study of Mus musculus with 35 samples.

Results

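The nuclear and mitochondrially encoded genes of oxidative phosphorylation described here were the rows of the count table whose symbols begin with Nduf, Sdha, Sdhb, Sdhc, Sdhd, Uqcr, Cox4, Cox5, Cox6b, Cox6c, Cox7, Cox8, Atp5, mt-Nd, mt-Co, mt-Cytb or mt-Atp, without symbols that contain -ps, which left out 9. That gave 105 of 22865 rows, 95 of them nuclear and 10 mitochondrially encoded. By symbol, 39 nuclear rows were assigned to subunits of complex I, 4 to complex II, 8 to complex III, 15 to complex IV and 16 to complex V, and 12 to assembly factors. Of these, 4 are annotated as processed pseudogenes in GENCODE M21, namely Ndufa11b, Ndufb4c and Ndufs6b among the 39 and Cox6c2 among the 15, and Ndufs6b and Cox6c2 passed the filter on low counts. Their values are uncertain, since a pseudogene can share reads with its parent gene. The remaining nuclear gene, Cox7a2l, encodes a protein that links complexes III and IV into supercomplexes. After that filter 91 of the 105 were tested, 83 nuclear and 8 mitochondrially encoded.

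Oxidative phosphorylation passes electrons from NADH and succinate along the protein complexes I to IV of the inner mitochondrial membrane to oxygen, and the ATP synthase, complex V, uses the proton gradient so made to produce ATP. The complexes are built from proteins of both genomes: the mitochondrial DNA encodes a few central subunits of complexes I, III, IV and V, which are transcribed inside the organelle as long precursors from both strands, while nuclear genes encode all of complex II, the remaining subunits and the assembly factors. In CD8 T cells this pathway is known for its part in quiescence, memory and long-term persistence, next to the glycolysis that activated effector cells rely on.

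The series holds RNA from the 3′ end of polyadenylated transcripts of sorted CD8 T cells from C57BL/6 mice aged 13 months. The mice received ND (normal diet) or CD-HFD, a choline-deficient high-fat diet used as a model of fatty liver disease. Hepatic cells were sorted as CXCR6pos or CXCR6neg, by the chemokine receptor CXCR6 that marks liver-resident T cells, and splenic cells as CX3CR1neg. The groups fitted were ND liver CXCR6pos (n = 6), CD-HFD liver CXCR6pos (n = 5), ND liver CXCR6neg (n = 4), CD-HFD liver CXCR6neg (n = 6), ND spleen CX3CR1neg (n = 5) and CD-HFD spleen CX3CR1neg (n = 6), all of the same strain and age, with no other allele or treatment named in the labels. Splenic cells were not sorted by CXCR6, so liver and spleen also differ in how cells were gated. The labels do not say whether replicates came from separate mice, and p-values then measure only the spread between these libraries, which may be technical.

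Total counts ran from 15633 to 978896 per library with a median of 308123, and 2 libraries were shallow (ND CXCR6pos replicate 1 with 15633 and CD-HFD CXCR6pos replicate 5 with 57168 counts). All 5 CD8 T cell markers were present in every group, markers of neutrophils were at or near 0, and globin RNA was present in all groups. The summed level of the 5 markers of plasmacytoid dendritic cells was 634 to 1062 counts per 1000000 (CPM) in CD-HFD CXCR6neg, 124 to 224 in CD-HFD CXCR6pos, where Ccr9 was at 0, and 215 to 377 in CD-HFD spleen. The 5 markers of NK cells summed to 406 to 560 CPM in CD-HFD CXCR6neg and 133 to 301 in CD-HFD CXCR6pos. Ncr1 was at 0 in both, and Klra8 was at 0 in CD-HFD CXCR6pos. The part of these cells in the results was not tested. Cxcr6 itself separated the sorted fractions under CD-HFD (573 to 867 CPM in CXCR6pos, 52.9 to 124 in CXCR6neg). Under ND they overlapped: the library labelled ND CXCR6pos replicate 6 had 201 CPM and the library labelled ND CXCR6neg replicate 4 had 450, so results that rest on ND liver libraries were also computed without these 2, and are given without them where a call changed.

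The 10 mitochondrially encoded genes lie on chromosome M, 9 on the plus strand and mt-Nd6 on the minus strand. Positions are those of GENCODE M21 on GRCm38, and mt-Co3, mt-Nd4l and mt-Atp8 were not analysed here. The assay reads the 3′ end of a transcript, and the last 40 bases of the annotated transcripts (GENCODE M21) are shown for the 6 genes that were called in at least 1 comparison below and for mt-Nd6, whose end overlaps that of mt-Nd5. They are written 5′ to 3′ on the strand of the gene, with capitals for the stop codon, or for the lone final T that the poly(A) tail completes to a stop codon.
mt-Co1, chrM:6833-6872, plus strand: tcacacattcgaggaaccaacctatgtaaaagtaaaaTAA
mt-Cytb, chrM:15249-15288, plus strand: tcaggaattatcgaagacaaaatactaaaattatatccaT
mt-Nd1, chrM:3668-3707, plus strand: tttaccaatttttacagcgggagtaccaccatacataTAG
mt-Nd2, chrM:4912-4951, plus strand: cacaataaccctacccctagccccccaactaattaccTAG
mt-Nd4, chrM:11505-11544, plus strand: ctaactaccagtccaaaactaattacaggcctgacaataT
mt-Nd5, chrM:13526-13565, plus strand: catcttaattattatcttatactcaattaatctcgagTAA
mt-Nd6, chrM:13552-13591, minus strand: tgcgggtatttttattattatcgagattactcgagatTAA
As annotated, mt-Nd5 and mt-Nd6 run toward each other and share their last 14 bases (chrM:13552-13565). Overlap of the transcripts beyond the annotated ends was not examined. Whether strand was used in the counting is not given in the sources used here, so reads from the shared bases cannot be told apart.

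Of the 10 genes, 2 were nearly empty in this table. mt-Co2 and mt-Atp6, which encode a subunit of complex IV and one of the ATP synthase, had 1 count each over all 32 libraries, next to 7868 for mt-Co1. How the counting treated reads that match several places is not given in the sources used here, and neither gene was tested. mt-Nd3, a subunit of complex I, was tested on few counts (21 to 71 per group).

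The mitochondrially encoded genes together took a smaller share of counts in CD-HFD CXCR6pos cells than in any other group, while the nuclear genes did not. Their summed share of all counts in the 5 CD-HFD CXCR6pos libraries was 0.523%, 0.568%, 0.582%, 0.557% and 0.575%. The lowest, at 0.523%, has an exact (Clopper-Pearson) 95% interval of 0.490% to 0.557%, which covers counting error only. By group the share was 0.561% ± 0.0235 (SD, n = 5) in CD-HFD CXCR6pos, 0.687% ± 0.0653 (n = 6) in ND CXCR6pos, 0.744% ± 0.0463 (n = 6) in CD-HFD CXCR6neg and 0.765% ± 0.0669 (n = 4) in ND CXCR6neg. The splenic groups had 0.810% ± 0.0116 (n = 6) under CD-HFD and 0.876% ± 0.0365 (n = 5) under ND. All 5 CD-HFD CXCR6pos libraries lay below all 27 others. The order from spleen to CXCR6neg to CXCR6pos held for the group means under both diets, but the ND CXCR6pos libraries (0.607% to 0.774%) overlapped the ND CXCR6neg libraries (0.718% to 0.861%). mt-Cytb alone made up 43.6% to 49.3% of these counts by group mean, and ratios to nuclear counts without it are given in the last section.

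The summed share of the nuclear genes differed little between groups. It lay between 2.09% and 2.55% in every one of the 32 libraries, with group means from 2.20% ± 0.130 (n = 4) in ND CXCR6neg to 2.38% ± 0.107 (n = 6) in CD-HFD spleen, and 2.35% ± 0.0467 (n = 5) in CD-HFD CXCR6pos. The ratio of mitochondrially encoded to nuclear counts in the CD-HFD CXCR6pos libraries was 0.229, 0.238, 0.245, 0.233 and 0.246. In the other 27 libraries it ran from 0.257 to 0.408, with no overlap. The group means were 0.303 ± 0.0412 in ND CXCR6pos, 0.328 ± 0.0304 in CD-HFD CXCR6neg, 0.348 ± 0.0358 in ND CXCR6neg, 0.340 ± 0.0139 in CD-HFD spleen and 0.369 ± 0.0228 in ND spleen, against 0.238 ± 0.0074 in CD-HFD CXCR6pos. These sums are descriptions and were not tested. They rest on bulk RNA, in which fewer cells of a type and less RNA per cell cannot be told apart.

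**Figure D1:**
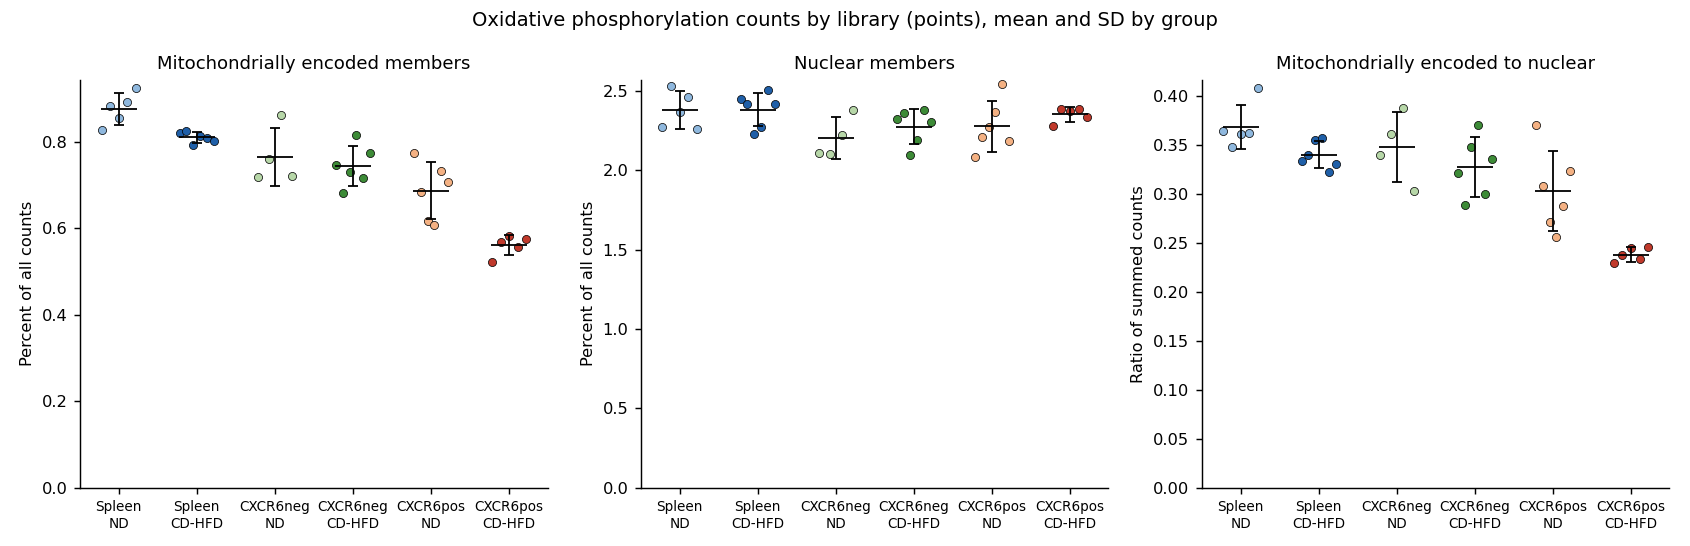
Summed counts of the mitochondrially encoded members (left) and nuclear members (middle) as a percent of all counts of a library, and their ratio (right), for the 6 groups; points are libraries, the bar and whiskers the group mean and SD. The 5 CD-HFD CXCR6pos libraries have ratios of 0.229 to 0.246, under the lowest of the other 27 (0.257), while the nuclear share stays between 2.09% and 2.55% throughout.

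CXCR6pos and CXCR6neg cells of the CD-HFD liver differed in 5 of the 8 tested mitochondrially encoded genes, all lower in CXCR6pos. In this comparison 11.1% of the 6174 tested genes were called (adjusted p under 0.05 in edgeR's quasi-likelihood test), 6.38% as lower. The genes that fell were mt-Co1, mt-Nd4, mt-Nd5, mt-Cytb and mt-Nd1, with log2 fold changes of -0.63 to -0.36. The median over the 8 was -0.38 on the log2 scale, against -0.0022 over all tested genes. In 3 of the 8, every CXCR6pos library was below every CXCR6neg library, which held for 3.94% of all tested genes.

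mt-Co1 encodes the catalytic subunit of cytochrome c oxidase (complex IV), which holds the site where oxygen is reduced, and lies at chrM:5328-6872 on the plus strand. Its level, scaled by TMM (trimmed mean of M values), was 508, 519.8, 542, 537 and 336 CPM in the 5 CD-HFD CXCR6pos libraries. In CD-HFD CXCR6neg it was 627 at the lowest, 794 at the median and 965 at the highest. The groups did not overlap, and the log2 fold change was -0.63 ± 0.11 (SE; edgeR adjusted p = 1.34e-05). The lowest value, 336 CPM, came from the shallow replicate 5, and the change was between -0.68 and -0.56 with any 1 library of the 2 groups left out, called each time.

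mt-Cytb encodes cytochrome b, the only subunit of complex III that the mitochondrial genome encodes (chrM:14145-15288, plus strand). The CD-HFD CXCR6pos libraries had 2605, 2785, 3343, 2920 and 2865 CPM. In CD-HFD CXCR6neg the lowest was 3395, the median 3845 and the highest 4172. No library of one group reached the other, and the gene fell by 0.39 on the log2 scale (SE 0.09, edgeR adjusted p = 0.00101).

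The complex I genes moved unequally. mt-Nd4, which encodes a proton-pumping subunit of the membrane arm, had 803, 830.3, 710, 658 and 707 CPM in CD-HFD CXCR6pos and a lowest value of 869, a median of 1075 and a highest of 1194 in CXCR6neg. The groups did not overlap (log2 fold change -0.50 ± 0.11, edgeR adjusted p = 0.00033). mt-Nd1, at the base of the membrane arm where quinone binds, had 973 to 1225 CPM in CXCR6pos and 1199 to 1573 in CXCR6neg. The groups overlapped, and its log2 fold change was -0.36 ± 0.11 (edgeR adjusted p = 0.0127). mt-Nd5, another proton-pumping subunit, had 130, 236, 193, 141 and 336 CPM in CXCR6pos and 197 to 299 in CXCR6neg. The groups overlapped, and the call (log2 fold change -0.45 ± 0.16, edgeR adjusted p = 0.0455) was lost when any one of CXCR6pos replicates 1, 3 and 4 or CXCR6neg replicates 1, 4, 5 and 6 was left out, with values from -0.59 to -0.31 over all 11 libraries left out. It was not called by DESeq2 (-0.44, adjusted p = 0.0963). In edgeR the call was also lost with no filter on low counts (adjusted p = 0.108), with only the compared groups (0.0572) and with a block for replicate number (0.183). Keeping ND CXCR6neg replicate 1 (edgeR adjusted p = 0.0622), or both it and ND spleen replicate 6 (0.0635), lost it as well. These 2 libraries were left out of the main fit, as described under the processing.

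The other 3 tested mitochondrially encoded genes were not called in that comparison. mt-Nd2, a complex I subunit of the membrane arm, had a log2 fold change of -0.26 (95% interval -0.50 to -0.02, edgeR adjusted p = 0.167), and it was called without the 2 shallow libraries (-0.33, adjusted p = 0.0498). mt-Nd6, the complex I subunit on the minus strand, had 79.5 ± 32.3 CPM (SD, n = 5) in CXCR6pos and 80.01 ± 17.7 (n = 6) in CXCR6neg, and its log2 fold change of 0.13 has a 95% interval of -0.35 to 0.61. mt-Nd3 had 0.59 with an interval of -0.38 to 1.57. These 2 intervals reach down to near the change of mt-Cytb, and whether either gene differed from the genes that fell was not tested.

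The mitochondrial ribosomal RNAs, which are not among the 105 but come from the same precursors, were not called. mt-Rnr2, the large-subunit RNA, had 19479 ± 1496 CPM in CD-HFD CXCR6pos and 23024 ± 3230 in CD-HFD CXCR6neg (log2 fold change -0.24 ± 0.12, edgeR adjusted p = 0.230). mt-Rnr1, the small-subunit RNA, had a log2 fold change of -0.48 ± 0.28 (edgeR adjusted p = 0.356).

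**Figure D2:**
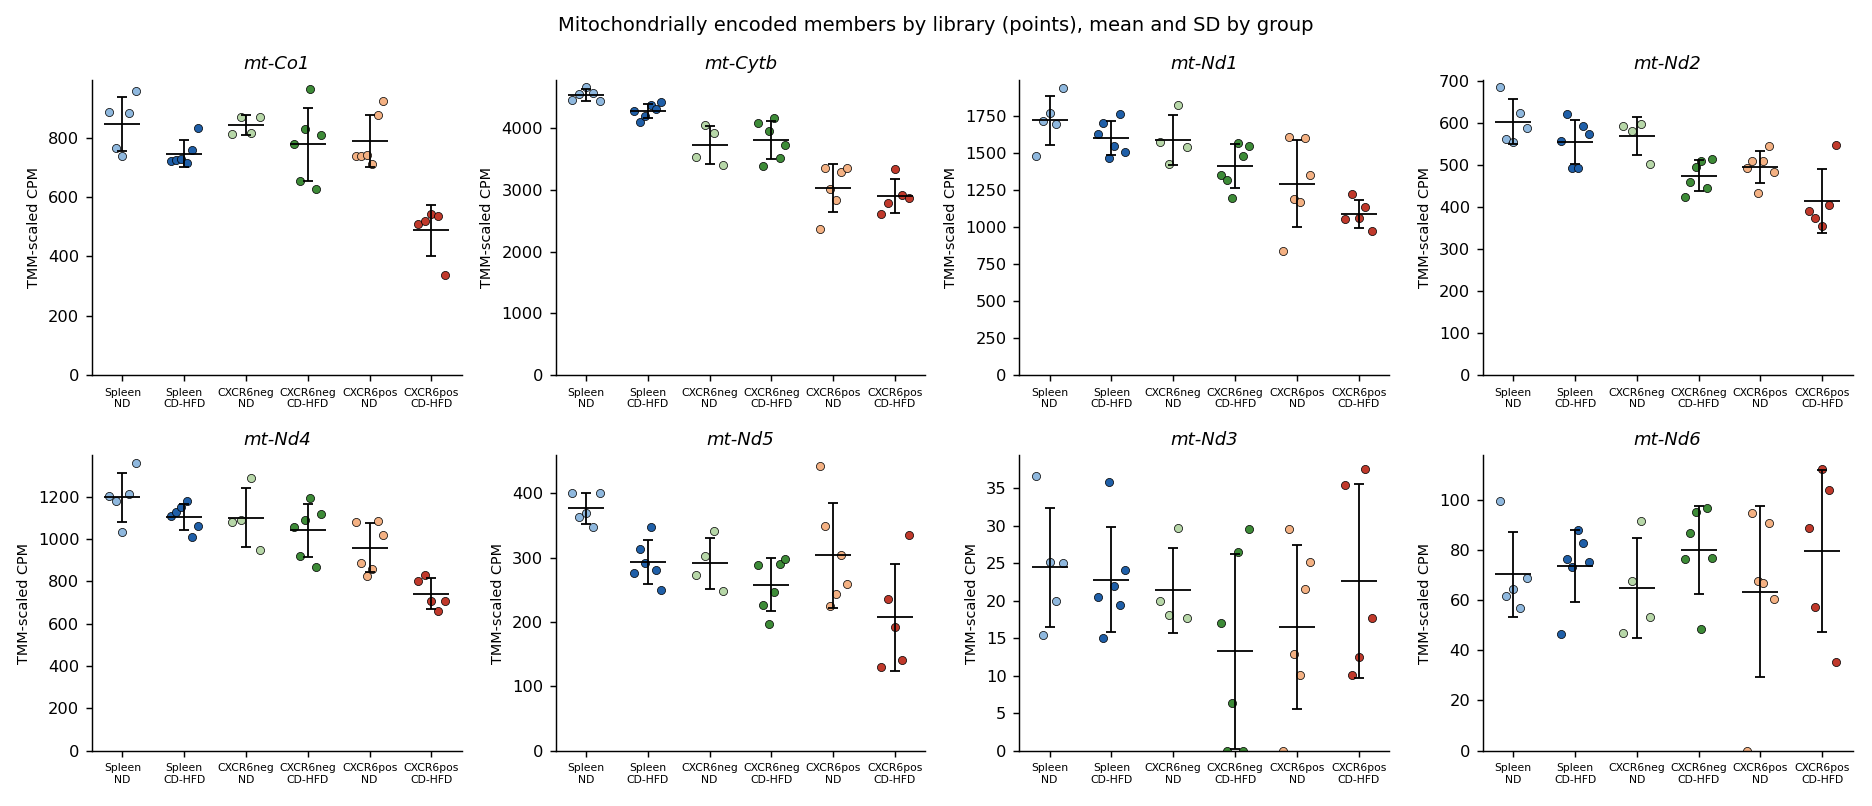
Level of each of the 8 tested mitochondrially encoded genes (TMM-scaled CPM, linear axis from 0) in every library of the 6 groups; points are libraries, the bar and whiskers the group mean and SD. mt-Co1 is at 336 to 542 CPM in CD-HFD CXCR6pos and at 627 to 965 in the other 27 libraries, while mt-Cytb is low in CXCR6pos cells of both diets.

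Among the 83 tested nuclear genes, 1 was called between CXCR6pos and CXCR6neg cells of the CD-HFD liver, and it rose, where 4.76% of all genes were called as higher. Cox8a, which encodes a small structural subunit of complex IV (chr19:7215153-7217616, minus strand), had 1323, 1397, 1313, 1275 and 1344 CPM in CXCR6pos and a lowest value of 1015, a median of 1042 and a highest of 1208 in CXCR6neg. The groups did not overlap, every CXCR6pos library being the higher as for 2.92% of all genes (log2 fold change 0.32 ± 0.10, edgeR adjusted p = 0.0200). The call was lost without CXCR6pos replicate 2 (0.30, adjusted p = 0.0601) and with no filter on low counts (0.29, adjusted p = 0.232). Without the 2 shallow libraries 4 nuclear genes were called. The median of the 83 was 0.04 on the log2 scale, and 80 of them lay within 0.5 of 0. A count of 1 in 83 is below the 11.1% called among all genes.

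By complex, the 37 tested nuclear rows of complex I had a median log2 fold change of 0.04 (0.03 over the 36 without the pseudogene Ndufs6b), from Ndufv2 at -0.42 (95% interval -0.73 to -0.10, adjusted p = 0.0717) to Ndufs4 at 0.47 (adjusted p = 0.0715), and none was called. Ndufv2 and Ndufs4 both belong to the arm that takes electrons from NADH, and Ndufs4 is needed to finish that arm. Ndufs1, the largest iron-sulfur subunit of this arm, had -0.10 (-0.60 to 0.41), and Ndufb8, a membrane-arm subunit often used as a marker of assembled complex I, had 0.04 (-0.26 to 0.34). The 4 subunits of complex II ranged from -0.04 to 0.21. There, Sdha, the succinate-oxidising flavoprotein, had 0.21 (-0.08 to 0.50), and Sdhb, its iron-sulfur partner, -0.03 (-0.30 to 0.25). The 8 nuclear subunits of complex III ranged from -0.28 to 0.16, with Uqcrc1, a core subunit on the matrix side, at -0.01 and Uqcrb, a quinone-site subunit, at 0.16.

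The 11 tested nuclear rows of complex IV had a median of 0.19, and the 10 without the pseudogene Cox6c2 had 0.18. Cox4i1, the regulatory subunit, was at -0.05 (95% interval -0.25 to 0.15), Cox5a at 0.19 (-0.07 to 0.46), Cox7c at -0.21 (-0.64 to 0.22) and Ndufa4, once placed in complex I and now known as a complex IV subunit, at 0.19 (-0.03 to 0.42). The 13 tested nuclear subunits of complex V had a median of 0.02, with Atp5a1 and Atp5b, the alpha and beta subunits of the catalytic head, at -0.15 each. So within complex IV, mt-Co1 fell by 0.63 on the log2 scale and Cox8a rose by 0.32, while the other 10 tested nuclear rows were not called.

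**Figure D3:**
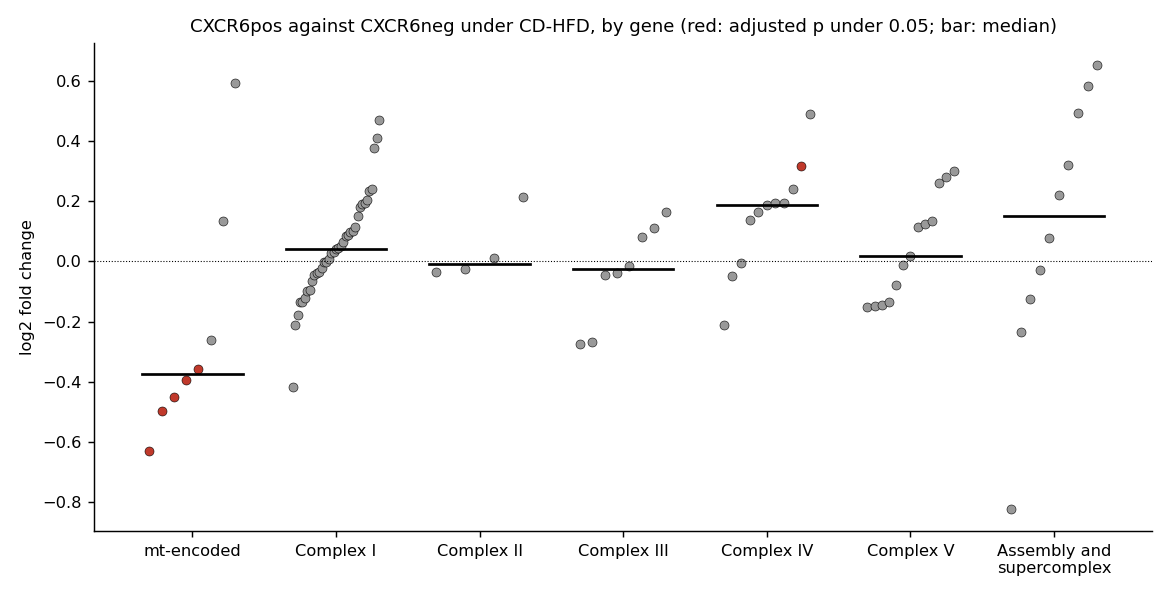
Log2 fold change of each tested member in CXCR6pos against CXCR6neg cells of the CD-HFD liver, for the mitochondrially encoded genes and for the nuclear genes by complex; points are genes, red those with adjusted p under 0.05 in edgeR, bars the median of a group. Of the 8 mitochondrially encoded genes 5 are called lower, and 1 of 83 nuclear genes, Cox8a, is called higher.

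In the ND liver, no gene of either kind was called between CXCR6pos and CXCR6neg cells by edgeR. In that comparison 0.0324% of all genes were called, so a count of 0 is near the background. At an unadjusted p under 0.05 there were 3 mitochondrially encoded and 3 nuclear genes in edgeR, and DESeq2 called 1, mt-Cytb. mt-Cytb had 3535, 4047, 3929 and 3408 CPM in ND CXCR6neg and a lowest value of 2363, a median of 3149 and a highest of 3362 in ND CXCR6pos. The ranges did not overlap, as for 0.648% of all genes, and the log2 fold change was -0.27 (95% interval -0.46 to -0.08, edgeR adjusted p = 0.332; DESeq2 adjusted p = 0.0274).

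mt-Co1 was nearly level between the ND fractions. It had 814, 872, 816 and 871 CPM in ND CXCR6neg and 712 to 926 in ND CXCR6pos, and the log2 fold change was -0.07 with a 95% interval of -0.30 to 0.15. The difference between diets in the CXCR6pos against CXCR6neg change, tested as an interaction, was -0.56 ± 0.16 for mt-Co1 (95% interval -0.87 to -0.24) and had an adjusted p of 0.0512 in edgeR. It was thus not called in the planned fit and was called in DESeq2 (adjusted p = 0.0306). Over all genes 1.44% were called for this interaction, and among the others of the 91 the smallest unadjusted p was that of Ndufs4, 0.0352. The interaction of mt-Cytb was -0.12 with a 95% interval of -0.39 to 0.14.

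Diet within CXCR6pos cells went with lower levels of 3 of the 8 mitochondrially encoded genes under CD-HFD, mt-Co1, mt-Nd5 and mt-Nd4. In this comparison 11.3% of all genes were called, 6.45% as lower, and it shares the CD-HFD CXCR6pos libraries with the comparison above. mt-Co1 had 508, 519.8, 542, 537 and 336 CPM under CD-HFD and a lowest value of 712, a median of 741 and a highest of 926 under ND. All CD-HFD libraries were lower, as for 1.85% of all genes, and the log2 fold change was -0.66 ± 0.11 (edgeR adjusted p = 4.11e-06). Without the 2 ND libraries that Cxcr6 set apart it was -0.60 (edgeR adjusted p = 6.45e-05), and it was called with any 1 library of the 2 groups left out.

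The other 2 calls were less stable. mt-Nd5 had a log2 fold change of -0.55 ± 0.15 (edgeR adjusted p = 0.00765), lost without CD-HFD CXCR6pos replicate 1 (-0.44) or 4 (-0.41). mt-Nd4 had -0.35 ± 0.11 (edgeR adjusted p = 0.0205), lost without ND CXCR6pos replicate 5 (-0.29) or 6 (-0.32), without CD-HFD CXCR6pos replicate 3 (-0.33) or 4 (-0.29), and without the 2 ND libraries that Cxcr6 set apart (-0.32). Leaving out ND CXCR6pos replicate 3 raised the count to 5 genes, and leaving out CD-HFD CXCR6pos replicate 4 lowered it to 1. mt-Cytb had 2605 to 3343 CPM under CD-HFD and 2363 to 3362 under ND, fully overlapping, with a log2 fold change of -0.09 (95% interval -0.28 to 0.09).

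mt-Co1 and mt-Cytb therefore took different shares of the mitochondrially encoded counts. mt-Co1 made up 8.20% ± 1.38 (SD, n = 5) of them in CD-HFD CXCR6pos and 11.4% ± 0.979 (n = 6) in ND CXCR6pos, and the ranges (5.78% to 9.04%, and 9.76% to 12.4%) did not overlap. In the splenic groups its share was 8.60% ± 0.483 under CD-HFD and 9.02% ± 0.807 under ND. mt-Cytb made up 48.7% ± 2.71 in CD-HFD CXCR6pos and 43.6% ± 2.33 in ND CXCR6pos. In CXCR6neg cells mt-Co1 made up 9.84% ± 0.890 under CD-HFD and 10.3% ± 0.954 under ND, and mt-Cytb 48.4% ± 1.74 and 45.4% ± 1.86. Of the 6 groups, ND CXCR6pos had the highest mean share of mt-Co1 and the lowest of mt-Cytb. CD-HFD CXCR6pos had the lowest mean share of mt-Co1. These shares were not tested, and the share of mt-Co1 in CD-HFD CXCR6pos overlapped those in CD-HFD CXCR6neg and in the splenic groups.

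Of the 83 tested nuclear genes, 1 was called for diet in CXCR6pos cells, where 11.3% of all genes were called. Ndufb11, an accessory subunit of the complex I membrane arm encoded on the X chromosome (chrX:20615326-20617619, minus strand), had 230.4, 259.9, 237, 257 and 248 CPM under CD-HFD and a lowest value of 197, a median of 333 and a highest of 353 under ND. The lowest ND value came from the shallow replicate 1, and the ranges overlapped through it. The log2 fold change was -0.40 ± 0.13 (edgeR adjusted p = 0.0292), and the call was lost in DESeq2 and when any one of CD-HFD CXCR6pos replicates 1 to 4 or ND CXCR6pos replicates 3 and 5 was left out (-0.44 to -0.37 over all libraries left out). Cox8a was higher in every CD-HFD library than in every ND library, as 2.66% of all genes were, with a log2 fold change of 0.27 (95% interval 0.07 to 0.46, edgeR adjusted p = 0.0653, DESeq2 adjusted p = 0.00676). The 10 tested nuclear subunits of complex IV, without the pseudogene Cox6c2, lay between 0.0035 and 0.27 on the log2 scale, and none was called by edgeR. Sdha had 0.25 (-0.03 to 0.54), Cox4i1 0.14 (-0.06 to 0.34), Atp5b -0.11 (-0.34 to 0.12) and Ndufs1 0.03 (-0.47 to 0.52).

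In CXCR6neg cells and in the spleen, edgeR called no gene of either kind for diet, where 0.47% and 0.0324% of all genes were called. At an unadjusted p under 0.05 edgeR had 1 mitochondrially encoded and 5 nuclear genes in CXCR6neg and 1 and 2 in the spleen, and DESeq2 called none in either. mt-Co1 had a log2 fold change of -0.10 (95% interval -0.33 to 0.12) for diet in CXCR6neg and -0.18 (-0.37 to 0.02) in the spleen. mt-Nd5 in the spleen had 401, 364, 369, 348.4 and 401 CPM under ND and 249 to 348.3 under CD-HFD. Those ranges did not overlap, as for 0.308% of all genes, and the log2 fold change was -0.35 ± 0.12 with an edgeR adjusted p of 0.752. mt-Cytb did not overlap between the diets in the spleen either (log2 fold change -0.09, 95% interval -0.26 to 0.09). Thus 2 of the 8 genes were lower in every CD-HFD spleen library. The summed share of the mitochondrially encoded genes was 0.793% to 0.824% in CD-HFD spleen and 0.827% to 0.923% in ND spleen. These shares did not overlap and were not tested.

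**Figure D4:**
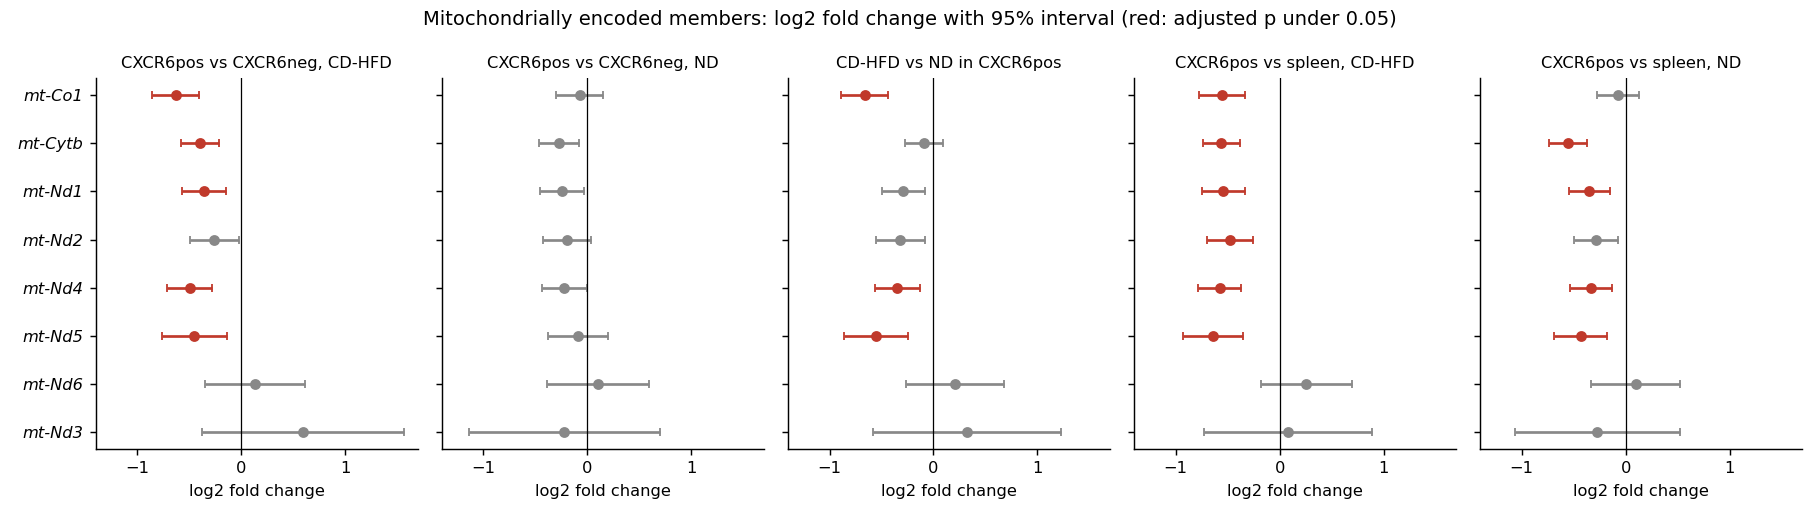
Log2 fold change with its 95% interval for the 8 tested mitochondrially encoded genes in 5 comparisons, which share groups; red marks adjusted p under 0.05 in edgeR. mt-Co1 is lower in the 3 comparisons that contain CD-HFD CXCR6pos cells and near 0 (-0.07) in both that do not, whereas mt-Cytb is lower than spleen in CXCR6pos cells of both diets (-0.56 and -0.55) and at -0.09 between diets.

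Against the spleen, CXCR6pos cells had lower levels of several mitochondrially encoded messenger RNAs under both diets. These 2 comparisons were added after the levels had been seen, and they share the CXCR6pos libraries with those above. Under CD-HFD, 6 of the 8 genes fell, where 25.7% of all genes were called and 13.3% as lower. Under ND, 4 of the 8 fell, where 14.4% were called and 6.98% as lower. mt-Cytb had 4097 at the lowest, 4298 at the median and 4419 at the highest in CD-HFD spleen, and 4463, 4554, 4672, 4575 and 4439 CPM in ND spleen. All CXCR6pos libraries of the same diet were below these, as for 8.37% of all genes under CD-HFD and 3.3% under ND (log2 fold change -0.56 ± 0.09, edgeR adjusted p = 2.65e-07 under CD-HFD, and -0.55 ± 0.09, 7.14e-07 under ND).

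The ribosomal RNAs of the mitochondrion were not called against spleen. mt-Rnr2 had a log2 fold change of -0.08 ± 0.12 under CD-HFD (edgeR adjusted p = 0.692) and -0.05 ± 0.12 under ND (0.847), and mt-Rnr1 had -0.50 ± 0.28 (0.213) and -0.20 ± 0.28 (0.734). The 6 B cell markers summed to 490 to 2542 CPM in CD-HFD spleen and 141 to 560 in CD-HFD CXCR6pos, and to 1034 to 1837 in ND spleen and 185 to 640.1 in ND CXCR6pos. The 4 erythroid markers summed to 2329 to 5041 CPM in CD-HFD spleen and 3635 to 10496 in CD-HFD CXCR6pos, and to 808 to 1933 in ND spleen and 2251 to 6076 in ND CXCR6pos. No marker of either list was at 0 in these groups, and their part in the results against spleen was not tested.

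The other calls differed between the diets in part, and the difference was not tested. Under CD-HFD, mt-Nd5 (-0.64), mt-Nd4 (-0.57), mt-Co1 (-0.56), mt-Nd1 (-0.54) and mt-Nd2 (-0.48) fell, with edgeR adjusted p from 3.67e-06 to 0.000364. Under ND, mt-Nd5 (-0.43), mt-Nd1 (-0.35) and mt-Nd4 (-0.33) fell, while mt-Co1 was at -0.07 (95% interval -0.28 to 0.13) and mt-Nd2 at -0.28 (adjusted p = 0.0561). mt-Nd2 was lower in every ND CXCR6pos library than in every ND spleen library, and DESeq2 called it (-0.29, adjusted p = 0.0320). The calls of mt-Nd4 and mt-Nd5 under ND were lost without ND CXCR6pos replicate 3 (-0.29 and -0.36), which left 2 genes. mt-Nd6 was at 0.26 (-0.18 to 0.69) and 0.10 (-0.33 to 0.52).

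Among nuclear genes 3 of 83 were called under each diet, where 25.7% of all genes were called under CD-HFD and 14.4% under ND. Cox7a2l and Atp5mpl were lower in CXCR6pos cells than in spleen under both diets. Cox7a2l (chr17:83501918-83517330, minus strand) had 620.2, 587, 548, 499 and 495 CPM in CD-HFD CXCR6pos and 760.3 to 817 in CD-HFD spleen, with no overlap (log2 fold change -0.51 ± 0.11, edgeR adjusted p = 0.000129). Under ND it had 443 to 645 in CXCR6pos and 891, 779, 878, 755 and 552 in spleen, where replicate 5 overlapped (-0.45 ± 0.11, edgeR adjusted p = 0.00129). Atp5mpl, a small subunit of the ATP synthase membrane part, fell by 0.42 on the log2 scale under CD-HFD (SE 0.14, edgeR adjusted p = 0.0144) and by 0.41 under ND (SE 0.12, 0.0127). The first of these calls was lost without CD-HFD CXCR6pos replicate 4 (-0.33), and the second without ND spleen replicate 4 (-0.36).

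A further 2 nuclear genes were called in 1 of these comparisons each. Under CD-HFD 12.5% of all genes were called as higher, and 6.41% were higher in every CXCR6pos than in every spleen library. Cox8a was higher in CD-HFD CXCR6pos than in CD-HFD spleen (1331 ± 44.9 against 1114 ± 66.1 CPM, no overlap, log2 fold change 0.26 ± 0.10, edgeR adjusted p = 0.0343), and this call was lost without CXCR6pos replicate 2 or 3 or spleen replicate 1 or 4 (0.25 to 0.26). The call of Cox8a was also lost with no filter on low counts (0.18, edgeR adjusted p = 0.433). Ndufc1, a small complex I subunit, was lower in ND CXCR6pos than in ND spleen (132 ± 41.9 against 205 ± 25.5 CPM, log2 fold change -0.46 ± 0.14, edgeR adjusted p = 0.0165), a call lost without ND CXCR6pos replicate 6 (-0.42) and without both ND libraries set apart by Cxcr6 (-0.42, adjusted p = 0.0569). Its lowest value, 49.2 CPM, came from the shallow replicate 1. So under CD-HFD 1 nuclear gene rose and 2 fell of 83, and under ND 3 fell, with medians of -0.02 and -0.05 on the log2 scale.

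**Figure D5:**
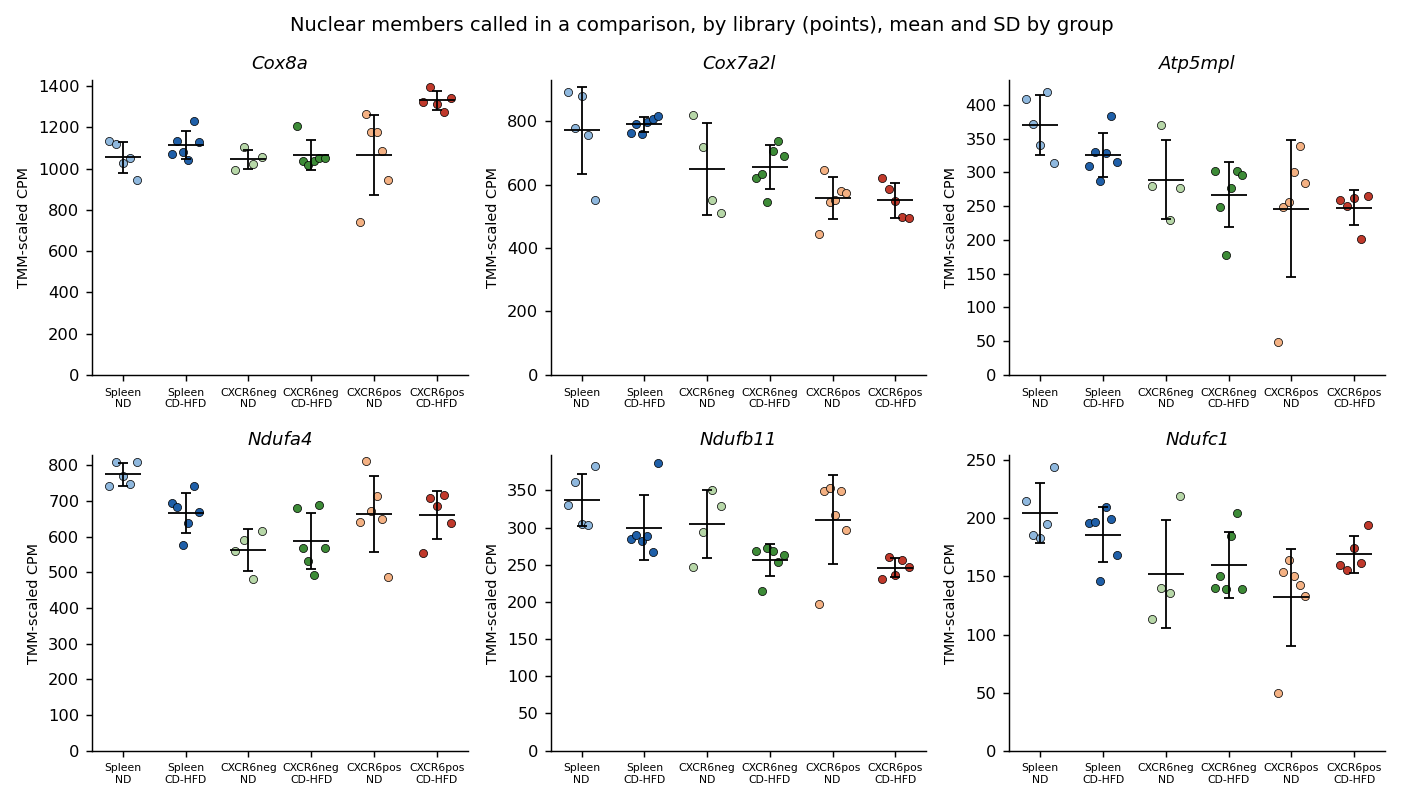
Level of 6 nuclear members that were called in at least 1 comparison (TMM-scaled CPM, linear axis from 0) in every library of the 6 groups; points are libraries, the bar and whiskers the group mean and SD. Cox8a is at 1275 to 1397 CPM in CD-HFD CXCR6pos, above every other library, and Cox7a2l is at 495 to 620.2 CPM in CD-HFD CXCR6pos and at 760.3 to 817 in CD-HFD spleen.

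Between CXCR6neg cells and spleen, edgeR called no mitochondrially encoded gene under either diet, where 10.4% of all genes were called under CD-HFD and 6.87% under ND. At an unadjusted p under 0.05 there were 1 and 2, and DESeq2 called none under CD-HFD and mt-Cytb under ND. mt-Cytb had a log2 fold change of -0.17 (95% interval -0.34 to 0.00201) under CD-HFD and -0.28 (-0.48 to -0.09, DESeq2 adjusted p = 0.00105) under ND. The ND libraries of this gene did not overlap, as for 3.58% of all genes. Of the nuclear genes 1 fell under CD-HFD and 2 fell under ND, where 4.71% and 2.14% of all genes were called as lower. Ndufc2, a complex I membrane-arm subunit, had 70.5 to 146 CPM in CD-HFD CXCR6neg and 135 to 178 in spleen (log2 fold change -0.48 ± 0.15, edgeR adjusted p = 0.0274), and was not called by DESeq2.

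Under ND, Ndufa4 (chr6:11900292-11907497, minus strand) had 560.3, 592, 479.7 and 616 CPM in CXCR6neg and 741, 808, 771, 747 and 809 in spleen, without overlap. Its log2 fold change was -0.47 ± 0.12 (edgeR adjusted p = 0.00404), and -0.38 (adjusted p = 0.0539) without the 2 ND libraries that Cxcr6 set apart. Ndufb2, a membrane-arm subunit of complex I, had -0.57 ± 0.18 (edgeR adjusted p = 0.0394), which was not called without those libraries (-0.46) nor by DESeq2. The call of Ndufc2 was lost without any one of CXCR6neg replicates 2, 4 and 5 or spleen replicates 1 and 3 (-0.54 to -0.35 over all libraries left out), that of Ndufa4 without CXCR6neg replicate 4 (-0.39), and that of Ndufb2 without any one of CXCR6neg replicates 3, 4 and 5 or spleen replicates 2 and 4 (-0.69 to -0.47).

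Of the tissue-restricted isoforms Cox4i2, Ndufa4l2 and Cox7a1 almost no counts were found. Cox4i2 and Ndufa4l2, isoforms known from lung, vessels and hypoxic cells, had 1 and 2 counts over the 32 libraries, and Cox7a1, known from heart and muscle, had 6. Their common counterparts were well measured in every group, with Cox4i1 at 909 ± 149 to 1075 ± 39.0 CPM and Cox7a2 at 339.8 ± 27.4 to 426 ± 109 CPM by group. Another 9 nuclear genes also did not pass the filter, among them the assembly factors Ndufaf5, Ndufaf6 and Sdhaf3 and the ATP synthase genes Atp5g2, Atp5l and Atp5s. These 9 are not listed here as tissue-restricted. Atp5g2 and Atp5l had 93 and 166 counts, next to 4177 for Atp5g3. The treatment of reads that match several places is not given, and whether these counts reflect low expression was not tested.

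Other mitochondrial gene lists were read from the same fit, between CXCR6pos and CXCR6neg cells of the CD-HFD liver, where 11.1% of all genes were called and 6.38% as lower. Nothing particular to a list is read from its count. None of 71 tested genes of the mitochondrial ribosome was called by edgeR (4 had an unadjusted p under 0.05), with a median log2 fold change of -0.11. Of 14 citric acid cycle genes 1 fell, citrate synthase Cs (-0.59 ± 0.20, edgeR adjusted p = 0.0415), and of 11 tested genes of mitochondrial transcription, replication and RNA maintenance 1 fell, Tbrg4 (-1.22 ± 0.36, adjusted p = 0.0117), which encodes an RNA-binding protein of mitochondria. Of 19 tested import genes Timm13 fell (-0.44 ± 0.15, adjusted p = 0.0367). Of 5 tested regulators of mitochondrial biogenesis, Myc was the one called, falling by 0.93 on the log2 scale (SE 0.22, edgeR adjusted p = 0.00105), and of 9 transport genes the proton and metabolite carrier gene Ucp2 rose (0.80 ± 0.17, adjusted p = 0.00017).

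Of 16 tested assembly factors of complex IV, Cox17, a copper chaperone, rose (0.39 ± 0.13, edgeR adjusted p = 0.0316). Of 7 tested pathway subunits that the rule does not name, 2 fell, cytochrome c1 gene Cyc1 (-0.47 ± 0.16, adjusted p = 0.0312) and Cox6a2. Cox6a2, a complex IV isoform known from muscle, was at 2.43 CPM in CD-HFD CXCR6pos and 114 in CD-HFD CXCR6neg (log2 fold change -5.12 ± 0.99, edgeR adjusted p = 0.000553), and the markers of plasmacytoid dendritic cells moved with it, as given above. Their part in this result was not tested. In CD-HFD spleen, where the summed level of those markers was 215 to 377 CPM, mt-Cytb was at 4097 to 4419 CPM. Spleen and liver cells also differ in tissue and gating, and a link between these markers and mt-Cytb was not tested.

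For diet in CXCR6pos cells, where 11.3% of all genes were called, 1 gene rose and 1 fell among the 71 of the mitochondrial ribosome, and none of the 14 citric acid cycle genes, the 19 import genes or the 11 transcription genes was called by edgeR (1, 2 and 0 had an unadjusted p under 0.05). Myc fell (-0.88 ± 0.21, edgeR adjusted p = 0.00164) and Ucp2 rose (0.66 ± 0.16, adjusted p = 0.00149), as they did against CXCR6neg with the same CD-HFD libraries. Surf1, an assembly factor of complex IV, rose by 0.62 on the log2 scale (SE 0.21, edgeR adjusted p = 0.0361), and Atpif1, which encodes an inhibitor of the ATP synthase, by 0.62 (SE 0.20, adjusted p = 0.0245). The group means of Surf1 differed less than its fold change, at 107 CPM under CD-HFD and 93.6 under ND. The reason was not tested.

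Against spleen under CD-HFD, 6 of the 71 genes of the mitochondrial ribosome fell and 2 rose in CXCR6pos cells, a smaller part than the 25.7% called among all genes, with a median of -0.26 on the log2 scale. Of the 11 tested transcription genes, Polrmt, the mitochondrial RNA polymerase, fell from 29.2 to 9.29 CPM (log2 fold change -1.28 ± 0.45, edgeR adjusted p = 0.0243). Its lower level rests on few counts, in libraries of 57168 to 369055 counts each. Ssbp1, another of the 11, which binds single-stranded mitochondrial DNA, fell from 110 to 65.1 CPM (-0.71 ± 0.21, edgeR adjusted p = 0.00538). Of the 14 citric acid cycle genes 4 fell, among them Suclg1 (-0.79 ± 0.16, edgeR adjusted p = 4.98e-05) and Cs (-0.68 ± 0.19, adjusted p = 0.00244), and Idh3a rose (0.54 ± 0.17, adjusted p = 0.0131). Under ND, where 14.4% of all genes were called, 2 genes of the mitochondrial ribosome fell and 1 rose, 1 citric acid cycle gene fell (Suclg1, -0.56 ± 0.15, edgeR adjusted p = 0.00314), and none of the 11 transcription genes was called by edgeR (3 had an unadjusted p under 0.05).

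Of the 83 tested genes that encode proteins of the cytosolic ribosome, 33 were lower and none higher in CD-HFD CXCR6pos cells against CXCR6neg, with a median log2 fold change of -0.31, and 21 were lower and none higher against ND CXCR6pos, with a median of -0.28. Of all tested genes, 6.38% and 6.45% were called as lower in these 2 comparisons. Against spleen 60 were lower and 3 higher under CD-HFD (median -0.61), and 50 lower and 2 higher under ND (median -0.40). There, 13.3% of all genes were called as lower under CD-HFD and 6.98% under ND. Over the first 2 of these comparisons the 83 nuclear oxidative phosphorylation genes had medians of 0.04 and 0.03. The part of this shift in the levels of the other genes was not tested.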

How the data were processed

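The labels' protocols describe sorting into lysis buffer, oligo-dT priming with barcodes and unique molecular identifiers, tagmentation, and sequencing of 3′ ends on a NextSeq 500. The authors deposited raw counts, whole numbers for each gene symbol and library in 1 table. The submitters' processing notes name GRCm38.p6 and DESeq2 1.14.1. For the aligner, the counting program, strand and the collapsing of identifiers, the entry is "not given in the sources used here". Of 35 labelled samples 34 matched a column. A single unmatched column was left unused, and CD-HFD CXCR6pos replicate 6 was not analysed here. ND CXCR6neg replicate 1 and ND spleen replicate 6 had the same value in every row under labels of different groups, and both were left out, so 32 libraries were fitted.

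The filterByExpr filter left 6174 genes, which were scaled by TMM. All groups entered a single edgeR 4.0.16 model (R 4.3.3, dispersion by estimateDisp, robust quasi-likelihood fit) with 1 coefficient per group and no block. Adjusted p-values are Benjamini-Hochberg values over the 6174 genes, called under 0.05. The standard error is the size of the log2 fold change divided by the square root of F, and intervals are 95%. DESeq2 1.42.0 was an alternative, as were other scaling, no filter, the identical library kept, shallow libraries left out, a replicate block and each library left out. Levels are CPM on TMM-scaled library sizes. The precision of a value follows from its count, and libraries held 15633 to 978896 counts. The procedure was tested on counts simulated for CXCR6pos against CXCR6neg under CD-HFD, with changed genes drawn from all 6174. Of 50 genes changed at each size, it recovered 2 at 1.3-fold, 12 at 1.5-fold, 25 at 2-fold and 48 at 4-fold. The unchanged genes called numbered 0. A gene that was not called may thus still differ by a change of the size described here. Named genes are the mitochondrially encoded members, 13 nuclear reference subunits, called members whose mean reached 20 CPM in either group (at most 8 a direction), 6 isoforms and called genes of listed pathways. Ndufs4 was named after its value was seen. The members and lists were chosen with earlier results of these data known. All 105 symbols matched GENCODE M21, the source of positions and sequences. Same-numbered libraries of 2 groups did not deviate together, so replicate numbers were not used as pairs.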

Additional observations from a re-analysis of the deposited data

Results flagged for a closer look

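Single libraries that stood apart from the rest of their group were sought in 19 quantities in the 6 groups of 4 to 6 libraries each, 114 groups of values in all, and 16 did, by a gap to the nearest library that is large for the range of the group (Dixon's test at 95%). Chance gives such a gap in about 1 of 20 groups. The shallow ND CXCR6pos replicate 1 accounted for 4 of them. It was lowest in its group for Atp5mpl and for Ndufc1 (49.2 CPM each), for Ndufb11 (197 CPM) and for mt-Nd6 (0 CPM, in a library of 15633 counts).

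The shallow CD-HFD CXCR6pos replicate 5 was lowest for mt-Co1 (336 CPM, the others 508 to 542) and highest for mt-Nd2 (548 CPM, the others 355 to 404). CD-HFD CXCR6pos replicate 4 was lowest for Atp5mpl (202 CPM). CD-HFD CXCR6neg replicate 1 was highest for Cox8a (1208 CPM), and replicate 2 of that group was lowest for Ndufb11 (215 CPM) and highest for Ndufb2 (173 CPM). ND CXCR6neg replicate 5 was lowest for mt-Nd2 (503 CPM, the others 583 to 598).

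In the spleen, ND replicate 5 had the highest ratio of mitochondrially encoded to nuclear counts (0.408, the others 0.348 to 0.364), and ND replicate 1 was highest for mt-Nd6 (99.5 CPM). CD-HFD replicate 6 was highest for mt-Co1 (832 CPM) and Ndufb11 (388 CPM), and CD-HFD replicate 1 was lowest for mt-Nd6 (46.6 CPM).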

How the results depend on the processing

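Counts below are of members called. With any 1 library left out, the mitochondrially encoded count was 4 to 5 between CXCR6pos and CXCR6neg under CD-HFD, 1 to 5 for diet in CXCR6pos, 6 for CXCR6pos against spleen under CD-HFD, 2 to 5 under ND, 0 to 1 for the interaction and 0 in the other comparisons. The nuclear counts were 1 to 3, 0 to 2, 2 to 5 and 2 to 4 in the first 4 of these, 0 to 2 for CXCR6neg against spleen under CD-HFD, 0 to 5 under ND (0 without CXCR6neg replicate 4, 5 without spleen replicate 5), and 0 elsewhere. The ratio of mitochondrially encoded to nuclear counts was 0.290 to 0.312 in ND CXCR6pos, 0.236 to 0.241 in CD-HFD CXCR6pos, 0.335 to 0.363 in ND CXCR6neg, 0.319 to 0.335 in CD-HFD CXCR6neg, 0.359 to 0.374 in ND spleen and 0.337 to 0.344 in CD-HFD spleen. mt-Nd6 between CXCR6pos and CXCR6neg under CD-HFD was -0.0187 without CD-HFD CXCR6pos replicate 4 and up to 0.30.

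For CXCR6pos against CXCR6neg under CD-HFD the nuclear count was 0 with no filter, 4 without the shallow libraries and 2 with the replicate block. For diet in CXCR6pos it was 2 with RLE scaling, with the identical library kept in both groups and without the shallow libraries, and 0 with no filter, with only the compared groups and with the block, while the mitochondrially encoded count was 5 without the shallow libraries and 1 with the block. For CXCR6neg against spleen under CD-HFD the nuclear count was 0 with DESeq2, 3 with only the compared groups and 2 with the block. Under ND it was 1 with no filter, with the identical library kept in both groups or in CXCR6neg, with DESeq2 and with the block, and 0 without the libraries set apart by Cxcr6, and the mitochondrially encoded count was 1 with RLE scaling, without the shallow libraries and with DESeq2. For CXCR6pos against spleen it was 6 nuclear genes under CD-HFD with only the compared groups, and under ND 0 nuclear and 2 mitochondrially encoded genes with the block. Between the ND fractions the mitochondrially encoded count was 1 with DESeq2, and for the interaction it was 1 with RLE scaling, with library sizes without mitochondrial genes, with the identical library kept in ND spleen and with DESeq2. Without mt-Cytb and Cox8a, the most abundant members, the ratios were 0.180, 0.129, 0.199, 0.177, 0.199 and 0.180, in the order given above. ND CXCR6neg and ND spleen were then both at 0.199, and CD-HFD CXCR6neg and CD-HFD spleen were at 0.177 and 0.180. The cause was not tested.

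Samples of the same replicate number correlated at -0.0621 to 0.0840 in their deviations, no pair over 0.1, so the block is an alternative only. The comparisons with spleen of CXCR6pos cells and the alternative by Cxcr6 were chosen after seeing the data. The shallow libraries, with 15633 and 57168 counts, limit what single values of low genes such as mt-Nd3 and mt-Nd6 can show.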
